A study of Mus musculus with 2 samples.

Results

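The miRNAs named miR-297 and miR-466 were measured in embryoid bodies, the cell aggregates that mouse embryonic stem cells form in suspension, on day 10 and on day 0 of differentiation. Members were all array probes whose name starts with mmu-miR-297 or mmu-miR-466, whatever the letter or arm, which gave 31 of the 1265 mature miRNA probes: 4 for miR-297 and 27 for miR-466. Both samples came from ATCC line CRL-1934 of strain 129S2/SvPas, labelled embryonic stem cells, were grown with fetal bovine serum and moved to ultra-low attachment dishes, and carried no genetic change or added agent in the labels. There was 1 array of Cy5-labelled total RNA for day 10 and 1 for day 0, with 3 spots per probe. No test was therefore possible, no p-value is given, and each SD below is a technical one. The SD of a probe is taken over 3 differences between the days, with spots matched by their order on the arrays. It can be smaller than the spread of spots within an array. The SD of a pair of arms is the root of the summed squares of its probes' SDs.

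A miRNA is cut from a hairpin precursor as a short strand from its 5′ side (5p) or its 3′ side (3p), and it recognises target transcripts mainly through its seed, bases 2 to 8. Many of the miR-297 and miR-466 hairpins lie in a rodent-specific tandem repeat in an intron of Sfmbt2, a gene for a Polycomb group protein that is imprinted and expressed from the paternal copy in extraembryonic tissue, and the cluster is known from embryonic stem cells and placenta. Its 5p arms are rich in alternating U and G, and its 3p arms are made mostly of A, C and U. In the RefSeq annotation of GRCm38.p6, 35 miRNA genes carried a miR-297 or miR-466 name, of which 29 lay within the bounds of Sfmbt2 on chromosome 2 and 6 on chromosomes 3, 7, 10 and 13. By name, 20 probes matched only genes within Sfmbt2, 5 only genes elsewhere (miR-466i-5p, miR-466i-3p, miR-466j, miR-466k and miR-466q), 5 genes in both places (miR-297a-5p, miR-297a-3p, miR-466f, miR-466f-5p and miR-466f-3p), and miR-466a-5p matched none by letter. The label of a single intron cluster therefore does not cover all 31 probes, and position within an intron was not tested.

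The following target sequences, as the array files give them and with the seed in capitals, are shown because members that differ by 1 or 2 bases gave different results. The first set holds 5p sequences and, for names without an arm, sequences of the same kind.
miR-297a-5p: aUGUAUGUgugcaugugcaugu
miR-297c-5p: aUGUAUGUgugcauguacaugu
miR-297b-5p: aUGUAUGUgugcaugaacaugu
miR-466h-5p: uGUGUGCAugugcuugugugua
miR-466j: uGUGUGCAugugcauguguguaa
miR-466m-5p: uGUGUGCAugugcauguguguau
miR-466d-5p: uGUGUGUGcguacauguacaug
miR-466n-5p: gUGUGUGCguacauguacaugu
miR-466k: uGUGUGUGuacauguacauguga
miR-466a-5p: uAUGUGUGuguacauguacaua
miR-466b-5p: uGAUGUGUguguacauguacau
miR-466i-5p: uGUGUGUGugugugugugug
The second set holds the 3p sequences that the arm comparison turns on.
miR-297a-3p: uAUACAUAcacacauacccaua
miR-466a-3p: uAUACAUAcacgcacacauaaga
miR-466b-3p: aUACAUACacgcacacauaaga
miR-466d-3p: uAUACAUAcacgcacacauag
miR-466m-3p: uACAUACAcacauacacacgca
miR-466h-3p: uACGCACGcacacacacac
miR-466i-3p: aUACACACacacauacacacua

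RefSeq's mature miRNAs of build GRCm38.p6 held 4 of the members, and all 4 were identical to the array's target. They were miR-466q on chromosome 3 from 28419988 to 28420007, miR-466k on chromosome 3 from 85467396 to 85467418, miR-466j on chromosome 10 from 60960802 to 60960824 and miR-466i-3p on chromosome 13 from 17747552 to 17747573, each on the plus strand. A set of 5 probes stood for several mature miRNAs of the same sequence. The miR-297a-3p probe also covered miR-297b-3p and miR-297c-3p, the miR-466a-3p probe miR-466e-3p, the miR-466b-3p probe miR-466c-3p and miR-466p-3p, the miR-466b-5p probe miR-466o-5p, and the miR-466m-5p probe miR-669m-5p. Near-identical targets may also bind each other's probes, so the signal of a single member is uncertain.

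Detection required a median spot signal over the 95th percentile of 5 blank spots, which was 71.4 units on the day 10 array and 70.04 units on the day 0 array. Of all 1265 miRNA probes, 476 were detected on day 10 and 738 on day 0. Over the 739 detected on either array, the median scanner signal was 97.9 units on day 10 and 189 units on day 0. The 5 listed stem cell markers, miR-291a-3p, miR-294-3p, miR-295-3p, miR-302a-3p and miR-302d-3p, were detected on both days, with summed signals of 20140 units on day 10 and 24197 units on day 0. All 4 fibroblast markers were also detected, with summed signals of 636 units on day 10 and 4179 units on day 0. Of the neural markers both were detected on each day, and none of the 3 muscle markers was detected on either. None of the 3 blood and 2 endoderm markers was detected on day 10, and 1 of each was detected on day 0. The blood markers include miR-142-3p, which was detected on neither. The endothelial marker miR-126-3p was detected on both days. The fibroblast markers' log2 differences (day 10 minus day 0, normalized as described next) lay between -2.38 and -0.47, and those of the stem cell markers between 0.32 and 2.48. That of miR-126-3p was 0.97. How far these marker values bear on the values below was not tested, and fewer cells of a type cannot be told apart from less RNA per cell.

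Of the 31 members, 29 were detected on at least 1 array, 28 on day 10 and 29 on day 0. The probes for miR-466l-5p and miR-466n-3p were detected on neither. In scanner signal, without any scaling, all 29 were dimmer on the day 10 array, beside 91.3% of all detected probes. In 25 of the 29, all 3 spots of day 10 lay below all 3 spots of day 0, beside 83.9% of all detected probes. The 4 members whose spots overlapped between the days were all 3p probes: miR-297a-3p, miR-466a-3p, miR-466b-3p and miR-466o-3p. The plot of spot signals shows this contrast between the arms.

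**Figure D1:**
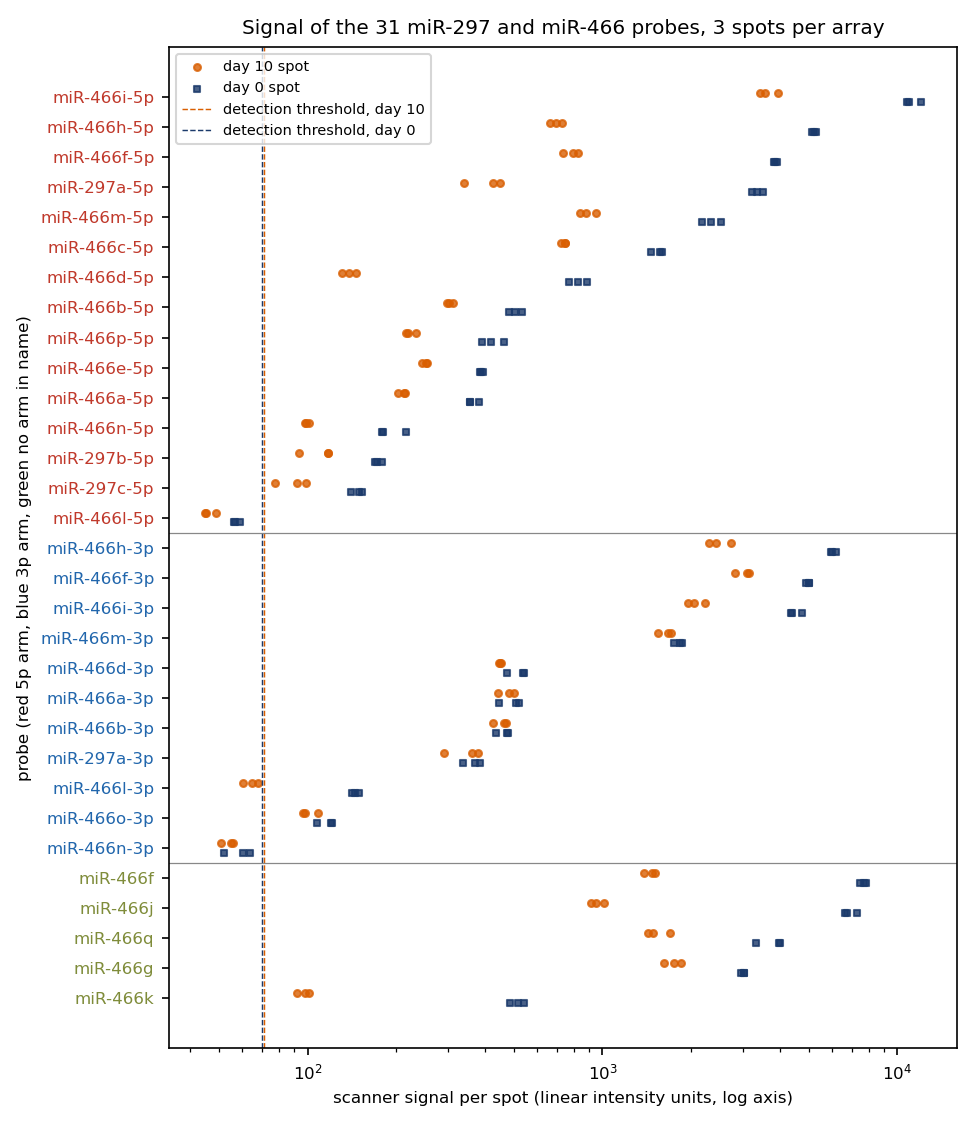
Scanner signal of every spot of the 31 probes on a log axis, in linear intensity units, with day 10 spots as circles and day 0 spots as squares; dashed lines mark the detection thresholds of 71.4 units (day 10) and 70.04 units (day 0). The 2 days lie far apart for 5p probes such as miR-297a-5p and miR-466h-5p and overlap for miR-297a-3p, miR-466a-3p, miR-466b-3p and miR-466o-3p.

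Most miRNA probes were dimmer on the day 10 array, with a median log2 ratio of day 10 to day 0 of -0.78 in scanner signal. The control probes did not share this shift in full: the ratio was -0.25 for spike-in probes and 0.15 for 5S rRNA probes. The source of the shift was not tested. Levels were compared after background correction and quantile normalization, as log2 differences of day 10 minus day 0 between normalized levels. Such a difference is read against the detected probes as a whole, whose median difference was 0.024. On this scale 3 detected members were at least 2-fold higher on day 10 (10.3%) and 7 at least 2-fold lower (24.1%), against 6.77% and 10.4% of all 739 detected probes. No member reached 4-fold in either direction, against 0.541% (higher) and 0.947% (lower) of all detected probes. That depended on the processing for the lowest members: miR-297a-5p was at least 4-fold lower under 7 of 10 other settings of background, scaling and spot summary, miR-466h-5p and miR-466j under 4, and the remaining 4 of the 7 named next under 2 or 3. Short of 2-fold, 6 members lay below 0 and 13 above it, so that in all 13 of the 29 were below 0, against 48.7% of all detected probes. The members' median difference was 0.13. The split into higher and lower members depended on the scaling: it was 3 and 7 with quantile normalization, 0 and 8 with cyclic loess, 0 and 7 with 75th percentile scaling and in the authors' processed values, 0 and 11 when scaled to the spike-in probes, 0 and 13 without normalization, and 0 and 15 when scaled to the 5S rRNA probes.

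The 7 members at least 2-fold lower on day 10 were miR-297a-5p, miR-466h-5p, miR-466j, miR-466f, miR-466d-5p, miR-466k and miR-466f-5p. Of these 7, 4 are named 5p arms and 3 have names without an arm. They stayed at least 2-fold lower under each of 10 other settings of background, scaling and spot summary. The 3 members at least 2-fold higher were the 3p probes miR-466b-3p, miR-466a-3p and miR-297a-3p, and these stood just past the threshold: they passed it under 4 of the same 10 settings, and were below 0 in the unnormalized values and when scaled to the 5S rRNA probes.

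**Figure D2:**
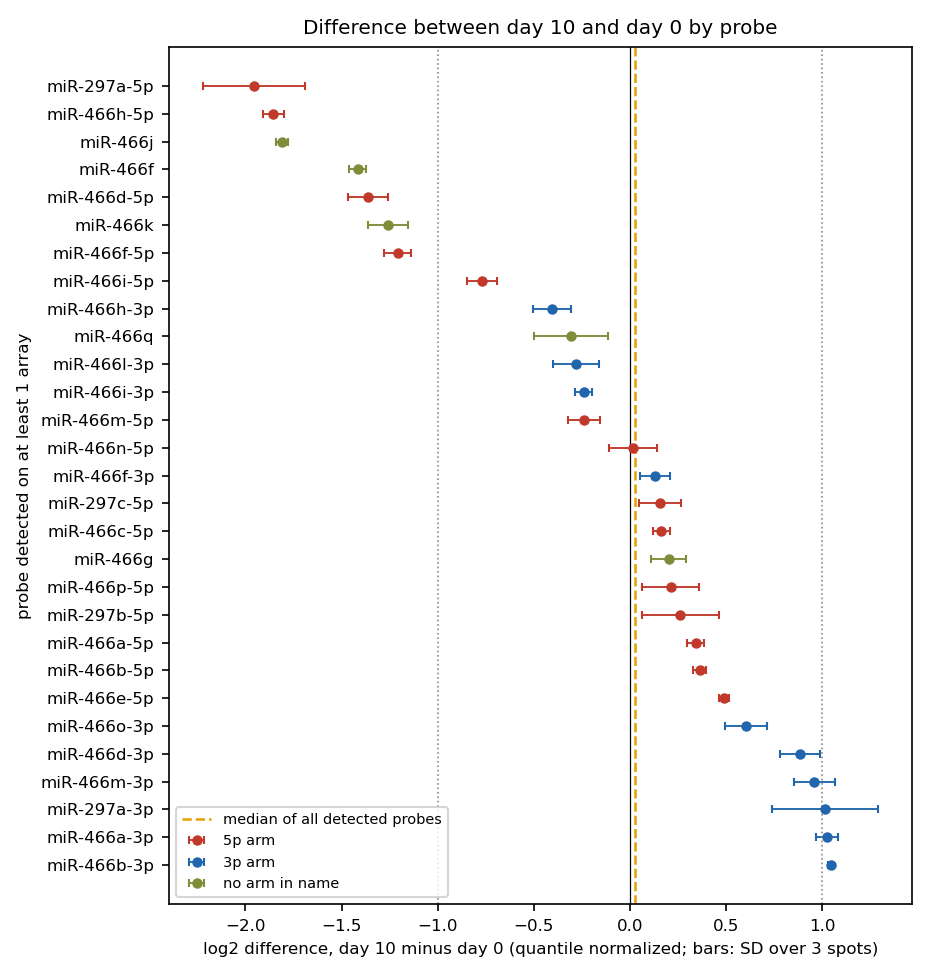
Log2 difference of day 10 minus day 0 for the 29 detected members after quantile normalization, as points with the SD over 3 spots; dotted lines mark 2-fold and the dashed line the median of all detected probes (0.024). The lowest values belong to 5p probes and to names without an arm, and the 6 highest to 3p probes.

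Among the 5p members, the probe for miR-297a-5p gave 426, 451 and 339 units on day 10, against 3205, 3331 and 3489 units on day 0. It was 3.88-fold lower on day 10, the lowest value of the family (log2 difference -1.96, SD 0.26 over spots). The probe for miR-466h-5p, a miRNA reported to promote apoptosis in cultured rodent cells short of nutrients, gave 732, 697 and 663 units on day 10, against 5284, 5203 and 5129 units on day 0. It was 3.62-fold lower (-1.85, SD 0.054), and its spots were close together on both arrays. The probe for miR-466d-5p gave 131, 146 and 138 units on day 10, against 769, 824 and 887 units on day 0. It was 2.57-fold lower (-1.36, SD 0.10).

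miR-466f-5p, with 796, 827 and 734 units on day 10 against 3826, 3891 and 3848 units on day 0, was 2.31-fold lower (-1.21, SD 0.071). miR-466i-5p, a pure repeat of UG, had the highest signal of all members on either array, with 3940, 3561 and 3414 units on day 10 against 12039, 10909 and 10762 units on day 0. At -0.77 (SD 0.077) it stayed short of 2-fold, and passed it under 4 of the 10 settings. Signals of different probes also depend on how well each probe binds, so a high signal is not a measure of how abundant one miRNA was beside another.

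The remaining 5p members lay near the bulk of the array. Their differences were -0.24 for miR-466m-5p, 0.015 for miR-466n-5p, 0.16 for miR-297c-5p and for miR-466c-5p, 0.21 for miR-466p-5p, 0.26 for miR-297b-5p, 0.34 for miR-466a-5p, 0.36 for miR-466b-5p and 0.49 for miR-466e-5p. Of these, miR-466c-5p had 725, 745 and 745 units on day 10 against 1464, 1590 and 1563 units on day 0, and miR-466b-5p had 297.1, 310.4 and 301.4 units on day 10 against 482, 533 and 504 units on day 0. The 5p arms thus fell into those far below 0 and those near or above it, with miR-466i-5p at -0.77 between them. Over the 14 detected 5p members, 4 were lower by at least 2-fold, none was higher, and the median was 0.085. Of all 295 detected 5p probes, 10.8% were lower and 5.42% higher, with a median of 0.0026. The median of the 5p members lay close to 0 under quantile normalization and turned negative in the authors' processed values (-0.041) and with cyclic loess (-0.079).

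The highest values belonged to 3p members. miR-466b-3p gave 424, 464 and 470 units on day 10 against 436, 476 and 479 units on day 0. Its signal was thus nearly equal on 2 arrays whose bulk differed, and it was 2.06-fold higher after normalization (1.04, SD 0.012). Within an array its log2 levels varied more, with an SD of 0.079 on day 10 and 0.069 on day 0. miR-466a-3p gave 441, 483 and 501 units on day 10 against 448, 522 and 509 units on day 0 and was 2.03-fold higher (1.02, SD 0.058). miR-297a-3p gave 361, 377 and 291 units on day 10 against 336, 370 and 384 units on day 0 and was 2.02-fold higher (1.01, SD 0.28). The SD reached across the 2-fold threshold for miR-297a-3p and miR-466a-3p. For miR-466b-3p the SDs within the arrays did so.

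miR-466m-3p and miR-466d-3p were next, at 0.96 (SD 0.11) and 0.88 (SD 0.10). miR-466m-3p had 1539, 1663 and 1708 units on day 10 against 1865, 1749 and 1832 units on day 0. Dimmer, miR-466o-3p differed by 0.60 (SD 0.11), with 97.9, 96.7 and 109 units on day 10 against 108, 121 and 120 units on day 0. The 6 highest members were thus all 3p probes.

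The 3p members with the highest signals did not share this. miR-466f-3p had 3081, 3130 and 2822 units on day 10 against 4882, 4998 and 5024 units on day 0, a difference of 0.13 (SD 0.077). miR-466i-3p differed by -0.24 (SD 0.043), and miR-466h-3p, with 2722, 2430 and 2295 units on day 10 against 6175, 6015 and 5943 units on day 0, by -0.41 (SD 0.10). miR-466l-3p is a miRNA known for stabilising interleukin-10 mRNA in mouse macrophages. Its probe had 64.9, 68.1 and 60.2 units on day 10, below the detection threshold, against 149, 141 and 145 units on day 0. It was at least 1.15-fold lower under quantile normalization. Over the 10 other settings its log2 difference ran from -1.10 (scaled to 5S rRNA probes) to -0.0041 (75th percentile scaling). Over the 10 detected 3p members, 3 were higher by at least 2-fold and none was lower, with a median of 0.74. Of all 278 detected 3p probes, 11.2% were higher and 8.27% lower, with a median of 0.14. The 3 higher members passed 2-fold under 4 of the 10 other settings named above.

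The 5 names without an arm fell into 2 kinds. miR-466f, with 1476, 1504 and 1383 units on day 10 against 7494, 7817 and 7713 units on day 0, was 2.67-fold lower (-1.42, SD 0.046). miR-466j, with 1013, 947 and 915 units on day 10 against 7314, 6666 and 6740 units on day 0, was 3.50-fold lower (-1.81, SD 0.031). miR-466k, with 101.4, 98.3 and 91.9 units on day 10 against 540, 486 and 519 units on day 0, was 2.39-fold lower (-1.26, SD 0.10). The AC-rich pair showed no such difference: miR-466q was at -0.31 (SD 0.19) and miR-466g at 0.20 (SD 0.091).

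The arms of one precursor name were set beside each other in 13 pairs with both probes detected, found from the name of the 5p probe. The pair of miR-466o was not among them, since its 5p arm is read by the probe named miR-466b-5p. Its 5p and 3p probes stood at 0.36 and 0.60, the same order with a narrower gap than in the 13. In all 13 pairs the 5p probe's log2 difference was below that of the 3p probe, against 55.6% of 151 pairs of other miRNAs. The median of 5p minus 3p was -0.86 against -0.077. This order is not particular to the members. The 151 include pairs of miR-467 and miR-669 of the same cluster, whose medians were 0.13 for 5p and 0.84 for 3p probes. The 13 pairs are not 13 separate observations, since miR-297a-3p and miR-466b-3p each served 3 pairs and miR-466a-3p served 2. Pairs with an undetected probe were left out: miR-466n, where 5p minus 3p was -0.26, and miR-466l, which went the other way at 0.33. The gap was widest for miR-297a, where 5p and 3p stood at -1.96 and 1.01 (5p minus 3p -2.97, SD 0.38), and next for miR-466d, at -1.36 and 0.88 (-2.24, SD 0.15). It was -1.45 for miR-466h, -1.34 for miR-466f and -1.20 for miR-466m, and the smallest of the 13 was miR-466i at -0.53 (SD 0.088). The 5p probe was below the 3p probe by at least 1 log2 unit in 5 of the 13 pairs and in 25 of the 151 other pairs. It was above by as much in none of the 13 and in 8 of the 151. As a difference between 2 differences, this gap does not move with a scaling that adds 1 constant to all probes, and the gap between the arm medians, -0.66 in the main setting, ran from -0.80 to -0.55 over 13 alternatives.

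**Figure D3:**
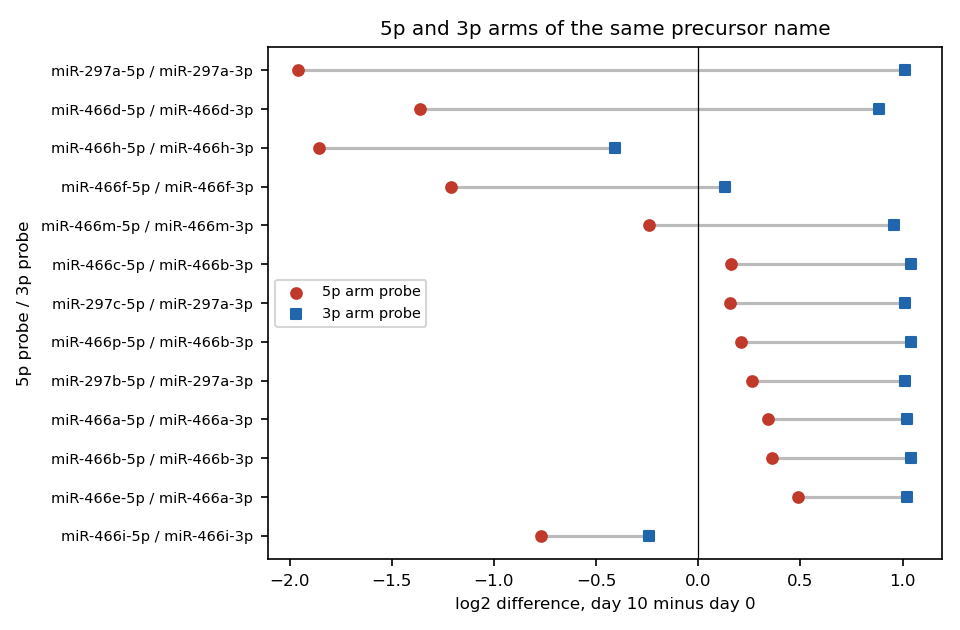
Log2 difference of day 10 minus day 0 of the 5p probe (circles) and the 3p probe (squares) for 13 precursor names with both probes detected, miR-466o not included. A line joins each pair. Every circle lies left of its square, with the longest line for miR-297a (-1.96 and 1.01) and the shortest for miR-466i (-0.77 and -0.24).

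Several members differ by 1 base, and their values did not always go together. Positions are counted from 1 at the 5′ end of the first miRNA named. miR-297a-5p and miR-297c-5p differ by G17A alone, yet miR-297c-5p had 92.1, 98.5 and 77.8 units on day 10 against 150, 153 and 140 units on day 0, and its difference of 0.16 (SD 0.11) stood apart from the -1.96 of miR-297a-5p by 2.11. miR-297b-5p, which differs from miR-297a-5p by U16A and G17A, had 117, 118 and 93.8 units on day 10 against 170, 179 and 172 units on day 0, a difference of 0.26 (SD 0.20). The 3 share the seed UGUAUGU, and so the only mismatches lie outside it. The probes for miR-297c-5p and miR-297b-5p were dim on both arrays, not far above the detection thresholds, where differences come out smaller. How much of the gap to miR-297a-5p this makes up was not tested.

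miR-466j and miR-466m-5p differ by A23U, the last base. miR-466m-5p had 951, 880 and 838 units on day 10 against 2525, 2179 and 2331 units on day 0, a difference of -0.24 (SD 0.082), while miR-466j was at -1.81. miR-466j and miR-466h-5p, which differ by A14U and by the last base that only miR-466j has, were alike at -1.81 and -1.85.

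miR-466d-5p and miR-466n-5p share 21 bases and are offset by 1. miR-466n-5p had 100.9, 98.4 and 98.7 units on day 10 against 180, 216 and 179 units on day 0, a difference of 0.015 (SD 0.13), beside -1.36 for miR-466d-5p. The probe for miR-466n-5p was likewise dim on both arrays, and the part of this in the gap was not tested. Shifted copies could also go together: miR-466a-3p and miR-466b-3p, offset by 1 base, were at 1.02 and 1.04. Over the 26 pairs of members at least 85% identical with at most 2 mismatches, the gap in log2 difference ran from 0.020 to 2.22. It was widest for miR-297a-5p and miR-297b-5p. Such wide gaps were not typical. With no limit on mismatches or offset, the 28 pairs at least 85% identical had a median gap of 0.35. The median gap was 0.85 at 70 to 85% identity, 0.79 at 50 to 70% and 0.88 below 50%.

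The 31 members had 19 different seeds, 7 of them shared by more than 1 member. The seed AUACAUA, shared by miR-297a-3p, miR-466a-3p and miR-466d-3p, had differences between 0.88 and 1.02, and AUGUGUG, of miR-466a-5p, miR-466e-5p and miR-466p-5p, between 0.21 and 0.49. GUGUGUG, of miR-466d-5p, miR-466k and miR-466i-5p, lay between -1.36 and -0.77. Other seeds were mixed: GUGUGCA, of miR-466h-5p, miR-466j and miR-466m-5p, ran from -1.85 to -0.24, and UGUAUGU of the miR-297 5p arms from -1.96 to 0.26. Outside the members, 3 probes had one of these seeds. miR-1187, with AUGUGUG, was at -1.59, well below the 3 members of that seed, while miR-467g and miR-669d-3p, with AUACAUA, were at 0.61 and 0.84.

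The letters UGUGUG stood in the target of 18 of the 31 members and in 3.56% of all 1265 probes. Of the 17 detected members with UGUGUG, 7 were lower by at least 2-fold, and none was higher (median -0.24). Of the 12 detected members without it, none was lower and 3 were higher (median 0.40). Outside the family, of 26 detected non-members with UGUGUG, 10 were at least 2-fold lower (38.5%) and 1 higher (median -0.30), against 60 lower (8.77%) and 46 higher of 684 without it (median 0.043). Of these 26, 11 were miR-467 or miR-669 probes of the same cluster, with 3 lower and a median of -0.24, and the other 15 had 7 lower, 1 higher and a median of -0.55. Among the non-members with UGUGUG and the highest signals, miR-1187 differed by -1.59 and miR-574-5p by -1.22, while miR-294-3p, a stem cell miRNA with the repeat at its 3′ end, was at 0.32. Lower values of UG-rich probes were thus found outside miR-297 and miR-466 as well.

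ACACAC stood in 7 members and in 2.77% of all probes, and no member held both motifs. None of the 7 was at least 2-fold lower and 1, miR-297a-3p, was higher (median 0.13). Of 26 detected non-members with ACACAC, 4 were higher and none lower (median 0.49). Of 684 detected non-members without it, 6.29% were higher and 10.2% lower (median 0.0040). Both motifs were read in the target sequence alone, since a mature miRNA is single-stranded.

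Signal level moved with these differences. Across the 29 detected members, the log2 difference correlated with the day 0 level at r = -0.57 (Pearson) and rho = -0.61 (Spearman), and across 710 detected non-members at -0.15 and -0.10. These probes share the same 2 arrays, and the day 0 level enters both measures. The number of G in the target gave r of -0.64 and the number of A 0.68 across the members, beside -0.23 and 0.23 across the non-members. Of the 15 members at or above the members' median day 0 signal of 824 units, 6 were at least 2-fold lower, against 33 of 146 non-members as bright (22.6%). The parts of sequence, signal level and cross-binding in these values were not tested.

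**Figure D4:**
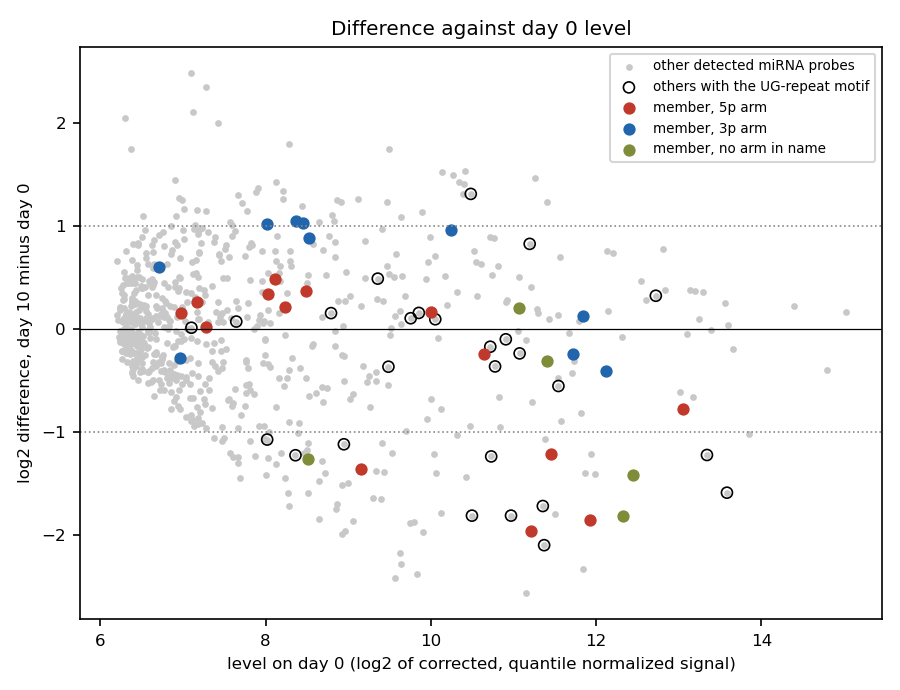
Log2 difference of day 10 minus day 0 against the day 0 level (log2 of the corrected and normalized signal) for the 739 detected probes; coloured points are members by arm, and open circles are other probes with the UG-repeat motif. The 5p members lie between -1.96 and 0.49, the open circles between -2.10 and 1.31, and the 3p members between -0.41 and 1.04.

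The values were also set beside the place of the genes. The 5 probes with genes only outside Sfmbt2 were all below 0, from -1.81 for miR-466j to -0.24 for miR-466i-3p, and 2 of them were at least 2-fold lower. Of the 18 detected probes with genes only within it, 2 were higher, 2 lower, and 5 were below 0 (median 0.21). With groups this small, these counts stand beside 6.77% higher and 10.4% lower of all detected probes, and 2 of 18 is near both shares. The UG-rich probes from elsewhere, miR-466i-5p, miR-466j and miR-466k, were at -0.77, -1.81 and -1.26, beside -1.85 for miR-466h-5p and -1.36 for miR-466d-5p from within the gene. The rest of the cluster, miR-467 and miR-669, was detected with 36 of its 40 probes; 3 of the 36 were higher and 3 lower by at least 2-fold (median 0.34), with medians of 0.13 for its 5p and 0.84 for its 3p probes. By day 0 signal, the 2 brightest probes of miR-467 were at -0.041 (miR-467f) and 0.50 (miR-467b-3p), and the 2 brightest of miR-669 at -0.31 (miR-669p-3p) and -0.42 (miR-669c-3p). Over all 36, differences ran from -2.10 to 1.31.

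The arm medians kept their order under every setting tried, while their place relative to 0 followed the scaling. Without normalization they were -0.95 for 5p and -0.17 for 3p, with a median of -0.63 for all detected probes. Scaled to the spike-in probes they were -0.72 and 0.059 around an overall median of -0.40, and scaled to the 5S rRNA probes -1.09 and -0.31 around -0.77. Relative to all detected probes, the 3p median lay at 0.46 to 0.87 and the 5p median at -0.32 to 0.092.

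**Figure D5:**
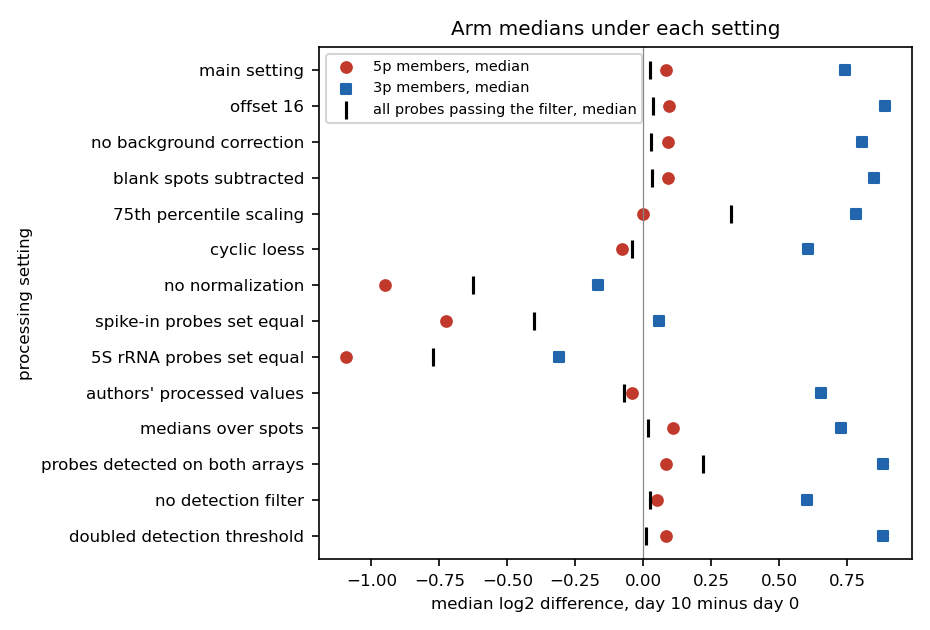
Median log2 difference of day 10 minus day 0 for the 5p members (circles), the 3p members (squares) and all probes passing the filter (bars) under the main setting and 13 alternatives. The square lies right of the circle in every row, by 0.55 to 0.80 in the alternatives, while the place of the marks relative to 0 moves with the scaling.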

How the data were processed

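Total RNA was hybridised to single-colour arrays with probes for release 19 of miRBase, 1 array for day 10 and 1 for day 0. Spot values are a linear median density (intensity) as deposited, per the file headers; no background subtraction or normalization is stated in the sources used here, and there is no background column. The authors' deposited table of processed intensity per probe, whose background and scaling are not given, served as an alternative (log2 of the value plus 50, all columns matched to samples).

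All 3968 spots entered normexp correction (limma 3.58.1, R 4.3.3, offset 50), values were put on a log2 scale, controls were dropped, and quantile normalization followed. A probe's level is the mean of its 3 spots. With this offset, dim probes show smaller differences. An "at least" fold sets the day 0 level against the lowest detected day 10 level or the probe's own, whichever was higher. Precision is limited by having 1 array per day, and nothing was tested. The procedure was run on simulated arrays in which every miRNA probe was dimmed alike. Changes were set among bright probes, equally many in each direction. Such a run does not test the choice of scaling or the values of dim probes. The members, lists and settings were chosen with earlier results of these data known. Every member could be named; spot values are given for those with the highest signal or largest difference in each arm, their partner arms and seed groups, and other values were chosen after they were seen. The sequences of some members are not reported here.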

Additional observations from a re-analysis of the deposited data

How the results depend on the processing

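Alternatives changed the offset, the background, the scaling, the source of the values, the spot summary, the detection filter or the fold threshold. The number of members at least 2-fold higher was 0 in place of 3 without normalization, after cyclic loess, in the authors' processed values, at a 4-fold threshold, and when scaled to the 75th percentile, to spike-in probes or to 5S rRNA. The number lower, 7, was 13 without normalization, 11 when scaled to spike-in probes, 15 when scaled to 5S rRNA, and 0 at 4-fold. The 5p median of 0.085 was -0.079 with cyclic loess, -0.041 in the authors' processed values, -0.95 without normalization, -0.72 on the spike-in scale and -1.09 on the 5S rRNA scale. The 3p median of 0.74 was -0.17, 0.059 and -0.31 in these last 3 settings. It was 0.89 with an offset of 16, 0.80 without background correction, 0.85 with blank spots subtracted, 0.78 with 75th percentile scaling, 0.61 with cyclic loess, 0.65 in the authors' processed values, 0.88 for probes detected on both arrays or with a doubled threshold, and 0.60 with no detection filter. The 5p minus 3p gap of -0.66 was -0.80 with an offset of 16, -0.76 with blank spots subtracted, -0.78 on the 75th percentile, spike-in and 5S rRNA scales and without normalization, -0.80 for probes detected on both arrays or with a doubled threshold, and -0.55 with no detection filter. The 4 settings at -0.78 differ from each other by 1 constant, and the cause of the other shifts was not tested. No paired analysis was possible because only 1 array was made for either day. Low signal limits miR-466l-5p and miR-466n-3p, detected on neither array, and miR-466l-3p, detected on day 0 alone. It also limits members detected on both arrays but dim, among them miR-297b-5p, miR-297c-5p and miR-466n-5p.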
